A study of Neogale vison with 6 samples.

Results

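The genes described here belong to the families of enzymes that add or remove acetyl and methyl groups on histones, in Mv1Lu, an epithelial cell line from mink lung. They were found in the count table by symbol: the histone deacetylases (HDAC), the sirtuins (SIRT1 to SIRT7), the lysine demethylases (KDM), the lysine methyltransferases of the KMT2, KMT5 and SETD groups, the lysine acetyltransferases (KAT), the PRDM proteins, and EZH1, EZH2, EED, SUZ12, CREBBP, EP300, SUV39H1 and SUV39H2. The rule took 71 genes of the 24526 in the table, and 67 of them had enough reads to be tested, among 12148 genes tested in all. The rule used names and no measured value, so it also took scaffold subunits, transcription factors and enzymes with other substrates. Symbols of the same families that had no row of their own, and are not analysed here, were HDAC1, HDAC8, KDM2B, KDM4A, KDM4D, KDM5D, KMT2A and the PRDM proteins 7, 8, 9, 12 and 16.

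The control libraries came from 3 samples of untreated Mv1Lu cells, and the CD libraries from 3 samples subjected to cholesterol depletion (CD). CD lasted 16 h and combined lovastatin, a statin, at 50 μM with mevalonate, an intermediate of sterol synthesis, at 50 μM, in medium with 10% lipoprotein-deficient serum (LPDS). The treatment was given as a whole, so the parts of its components cannot be told apart, and the labels do not give the serum of the control cells. The labels do not say whether the 3 samples of a group were separate cultures, so the p-values measure the spread between these samples, which may be technical.

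Histone tails carry acetyl groups, which acetyltransferases add and deacetylases remove, and methyl groups, which methyltransferases write and demethylases erase. Acetylation and methylation of H3K4 mark active promoters and enhancers, whereas methylation of H3K27 by Polycomb repressive complex 2 (PRC2) and of H3K9 by the SUV39 enzymes marks silent chromatin. Most of these enzymes exist as pairs or small groups of paralogs, which share a substrate but differ in when and where they are expressed. The class I deacetylases and the sirtuins also act on proteins other than histones, and the class IIa deacetylases move between nucleus and cytoplasm in response to signals.

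The libraries held 13473820 to 18633764 reads on genes, and any 2 libraries of a group differed by more than the counting noise. The response to the treatment was visible in the transcripts of the sterol pathway, with HMGCS1, IDI1 and INSIG1 higher in CD. Of the listed epithelial markers, EPCAM, CDH1 and CLDN7 were at or near 0 in all libraries, whereas KRT19 was read at 936 ± 66.9 CPM (counts per 1000000 reads on genes, scaled by the TMM method) in the control and 458 ± 77.1 in CD (SD, n = 3 each). Of the 4 epithelial markers tested, KRT19 was lower and CLDN4 higher in CD (log2 fold changes -1.03 and 3.55), and OCLN (0.06) and TJP1 (-0.31) were not called. CLDN4 had 27 reads in the control and 326 in CD. Its control mean of 0.603 CPM was under the low-count cutoff of 0.669, so CLDN4 entered the test through the CD libraries. All 13 tested proliferation genes were lower in CD (median log2 fold change -2.41), and their summed level went from between 2541 and 2716 CPM in the control to between 443 and 474 in CD. Of them, CCNE2 had 187 reads in the control and 13 in CD, and entered the test through the control libraries. The proliferation genes thus moved with the same contrast as every member, and their part in those results was not tested. In RNA from a whole culture, fewer cells that express a gene and less RNA per cell cannot be told apart. The markers of leukocytes were low, at a summed 5.64 to 6.89 CPM in the control and 21.8 to 26.9 in CD, with 3 of 3 tested higher and the defining marker PTPRC at 1 read in all. Among these, CD14 had 7 reads in the control and 38 in CD, and entered the test through the CD libraries. Among fibroblast markers 4 of 5 tested were lower in CD, and the endothelial markers CDH5, KDR and PECAM1 were at or near 0 while TEK was lower and VWF higher. VWF had 5 reads in the control and 56 in CD, and also entered the test through the CD libraries.

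CD changed the transcript levels of 28 of the 67 tested members (41.8%), at a false discovery rate (FDR) under 0.05 in edgeR's quasi-likelihood test with Benjamini-Hochberg adjustment over all genes. The same test called 47.7% of all genes, so the share among the members was not above that of the transcriptome. Of the 28 members, 17 were higher in CD (25.4%, against 24.8% of all genes) and 11 were lower (16.4%, against 22.9%). Log2 fold changes are those of CD against control throughout, each with the standard error (SE) of the fit. The members called higher by at least 2-fold numbered 7 (10.4%, against 10.6% of all genes), namely HDAC5, HDAC9, PRDM1, SETD7, KDM7A, KDM5B and EZH1. Of these, HDAC9, KDM7A and PRDM1 had 0, 1 and 2 control libraries above the low-count cutoff of 0.669 counts per 1000000 reads and 3 CD libraries above it, so they entered the test through the group in which they were high. Those called lower by at least 2-fold numbered 4 (5.97%, against 9.64%), namely SUV39H1, EZH2, SUV39H2 and SETD9. In 31 members (46.3%) the 3 CD libraries lay entirely above or below the 3 control libraries, which was the case in 58.0% of all genes. The median log2 fold change was 0.05 over the members tested and 0.06 over all genes tested.

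By activity, the deacetylases had 3 members higher and 1 lower of 15 tested, the demethylases 5 higher and 1 lower of 14, and the acetyltransferases 1 higher and 2 lower of 9. The methyltransferases had 7 higher and 6 lower of 22, without the PRDM proteins but with the PRC2 scaffold subunits EED and SUZ12 counted among them. These counts are of small groups and stand beside 24.8% of all genes higher and 22.9% lower. The same shares of all genes stand beside every count of called members of a family or partner list given below.

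**Figure D1:**
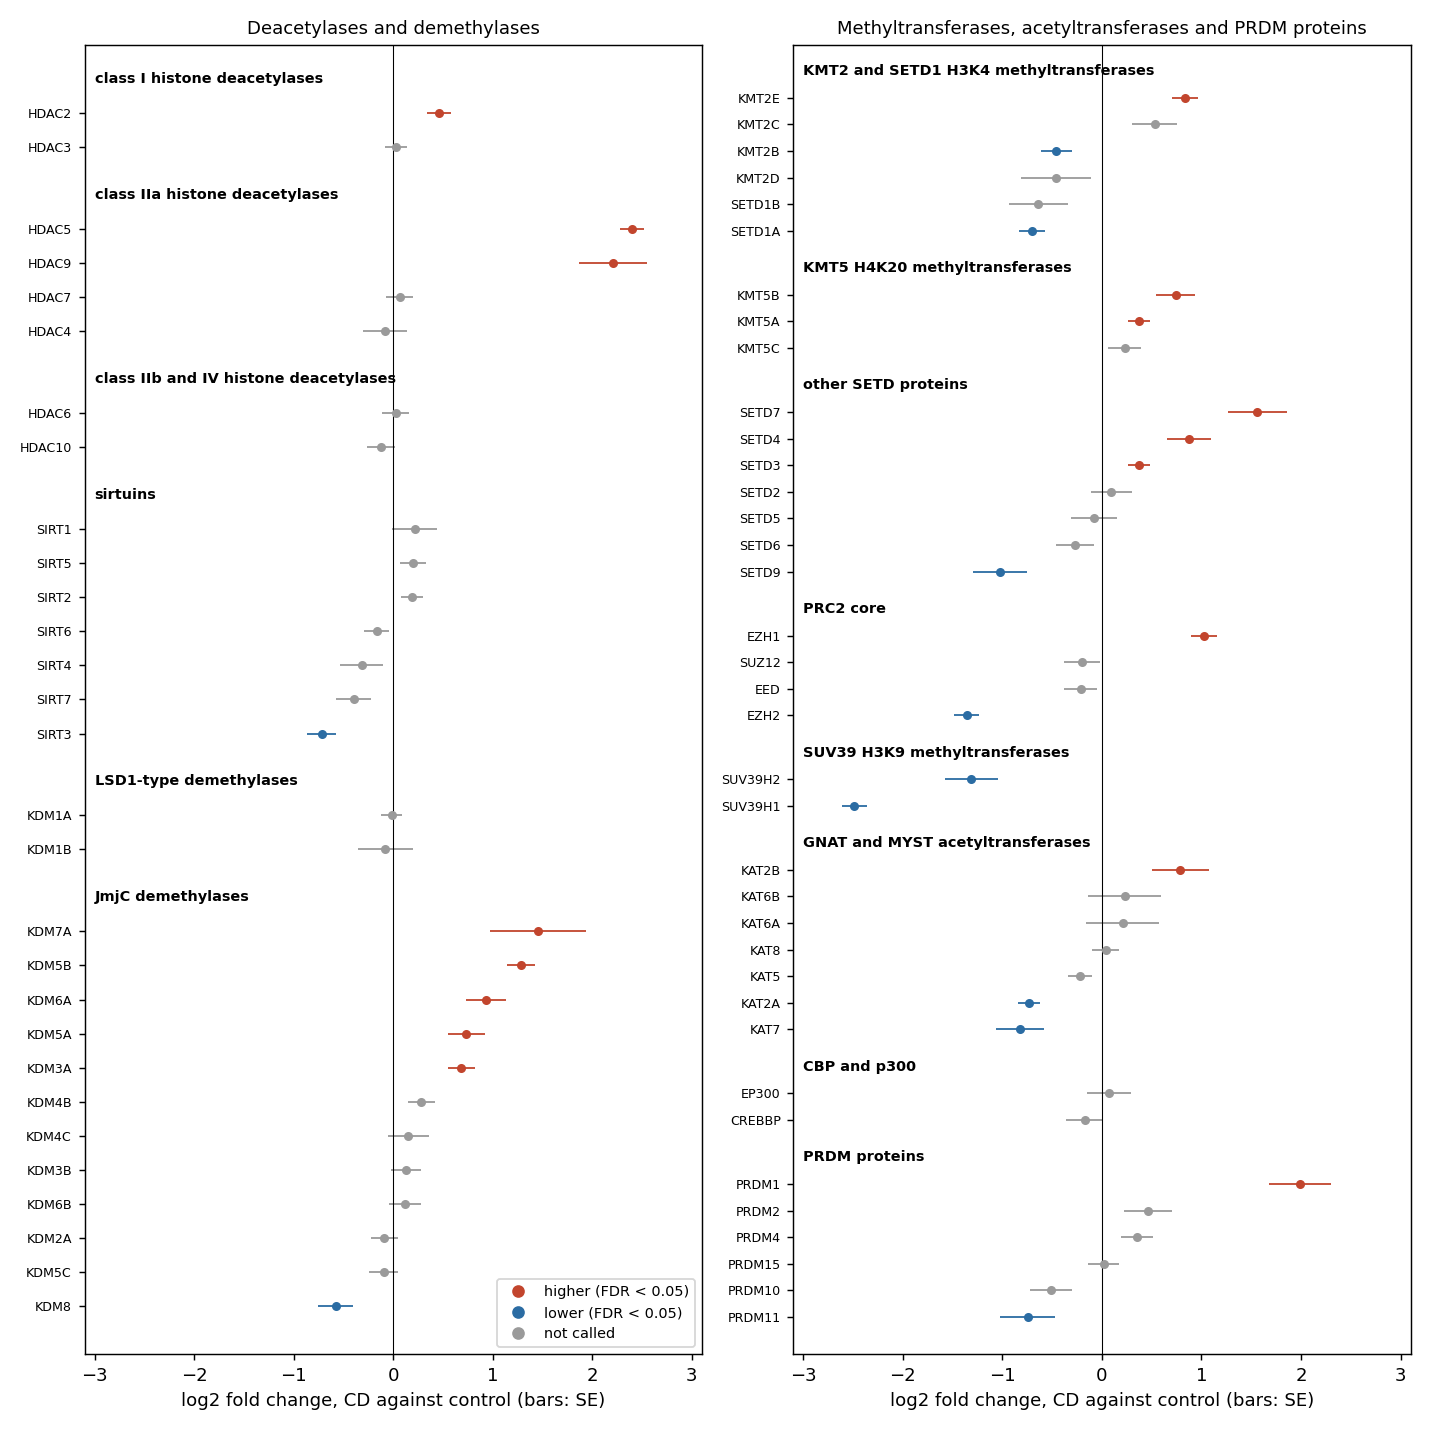
Log2 fold change of the tested members (all but 1) in CD against control, grouped by family, with bars for the standard error of the fit (3 libraries per group). The values reach from -2.49 (SUV39H1) to 2.40 (HDAC5), and in the PRC2 core EZH1 and EZH2 lie on opposite sides of 0.

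The catalytic subunits of PRC2 moved in opposite directions. PRC2 is the complex that trimethylates H3K27, and its catalytic subunit is either EZH2, the form typical of dividing cells, or EZH1, the form that prevails in resting cells. EZH2 (ENSNVIG00000003950) was read at 45.0, 46.6 and 43.5 CPM in control replicates 1, 2 and 3, and at 17.3, 17.3 and 18.1 CPM in CD replicates 1, 2 and 3. The CD libraries were all below the control libraries and close to one another. EZH2 fell by 1.36 on the log2 scale (SE 0.12, 2.56-fold, FDR = 1.90e-05). EZH1 (ENSNVIG00000013268) was read at 21.6, 21.1 and 23.1 CPM in the control and at 45.9, 48.1 and 40.3 CPM in CD, again without overlap. The increase of EZH1 was 1.03 on the log2 scale (SE 0.13, 2.04-fold, FDR = 0.000158).

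Within each library the ratio of EZH2 to EZH1 reads does not depend on how libraries are scaled. It was 2.08, 2.21 and 1.88 in the control and 0.378, 0.360 and 0.449 in CD, a change of -2.38 on the log2 scale (5.21-fold). With 3 libraries against 3, the exact two-sided permutation test cannot go below 0.1, and it gave p = 0.1 (0.133 after adjustment over 8 paralog pairs). EZH2 supplied 65.3% to 68.8% of the reads of both genes in the control and 26.5% to 30.9% in CD. The ratio is one of reads and is not corrected for transcript length, so only its change can be read.

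The scaffold subunits of the same complex were not called. EED, which binds the methylated tail, was read at 21.2, 25.1 and 21.8 CPM in the control and at 17.5, 17.9 and 23.6 in CD (log2 fold change -0.21, SE 0.17, FDR = 0.320). SUZ12 was read at 20.1, 20.9 and 18.6 CPM in the control and at 21.0, 13.5 and 17.4 in CD (log2 fold change -0.20, SE 0.18, FDR = 0.393). For both the groups overlapped. Without CD replicate 3, EED passed the test (log2 fold change -0.40, FDR = 0.0236), and with sample quality weights in limma-voom SUZ12 did (FDR = 0.0162).

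Among the 7 tested accessory subunits of PRC2, 2 were higher and 2 lower (median log2 fold change 0.00). JARID2, which helps to recruit the complex, rose by 1.08 (SE 0.16, FDR = 0.000429), and PHF1, a Polycomb-like subunit, by 0.35 (SE 0.12, FDR = 0.0396). PHF19, another Polycomb-like subunit, fell by 1.94 (SE 0.27, FDR = 0.000273) and EPOP fell by 1.12 (SE 0.26, FDR = 0.00588). PRC1, the complex that binds H3K27me3 or acts beside it, had 4 of 17 tested subunits higher and 3 lower. The largest changes were those of RYBP, a subunit of the PRC1 forms without a chromodomain protein, at 1.20 (SE 0.19, FDR = 0.000582), and of the chromodomain proteins CBX2 at -1.84 (SE 0.25, FDR = 0.000222) and CBX6 at -1.53 (SE 0.22, FDR = 0.000303).

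On the erasing side of H3K27 methylation stand KDM6A and KDM6B, and also KDM7A, which is described below. KDM6A (ENSNVIG00000016503, also called UTX) rose by 0.93 on the log2 scale (SE 0.20, FDR = 0.00374), with every CD library above every control library. KDM6B (also called JMJD3) had a log2 fold change of 0.12 (SE 0.16, FDR = 0.578), with overlapping groups. The ratio of KDM6B to KDM6A reads was 2.62 to 3.25 in the control and 1.36 to 1.97 in CD, a change of -0.80 on the log2 scale (exact two-sided permutation p = 0.1, 0.133 adjusted).

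**Figure D2:**
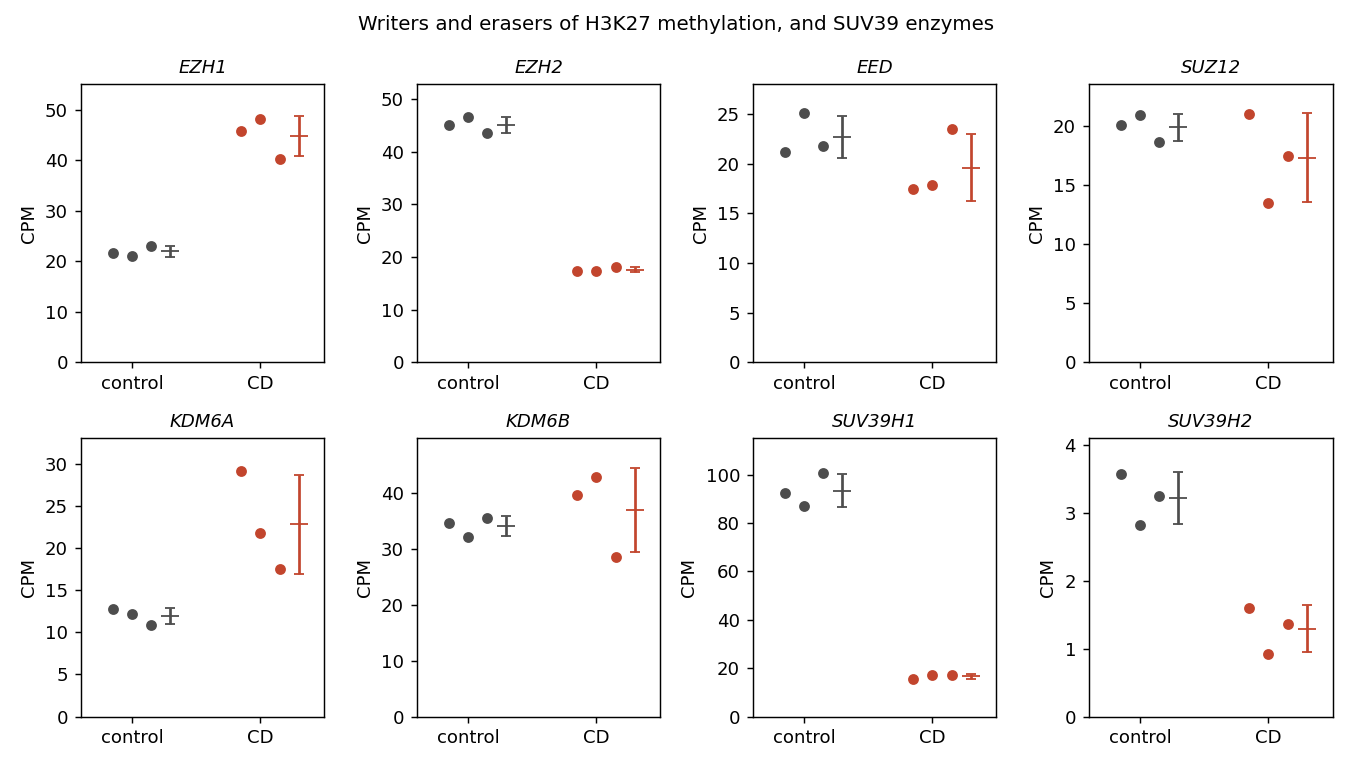
CPM of the PRC2 core, the H3K27 demethylases KDM6A and KDM6B and the SUV39 enzymes in each library (points, control grey and CD red), with the mean and SD of the 3 libraries beside them. EZH2 went from a mean of 45.0 to 17.6 CPM and EZH1 from 22.0 to 44.8, whereas the groups overlap for EED, SUZ12 and KDM6B.

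The strongest decrease of any member was that of SUV39H1, which together with SUV39H2 trimethylates H3K9 in constitutive heterochromatin. SUV39H1 (ENSNVIG00000006587) was read at 92.6, 87.2 and 100.5 CPM in the control and at 15.6, 17.2 and 17.1 CPM in CD. The highest CD library was far below the lowest control library, and the decrease was 5.61-fold (log2 fold change -2.49, SE 0.13, FDR = 4.71e-07). SUV39H2 (ENSNVIG00000024832) had few reads, 15 to 59 per library, which gave 3.58, 2.82 and 3.25 CPM in the control and 1.60, 0.92 and 1.37 CPM in CD. It fell by 1.31 on the log2 scale (SE 0.26, 2.48-fold, FDR = 0.00239), also without overlap. The ratio of SUV39H2 to SUV39H1 reads was 0.0326 to 0.0390 in the control and 0.0551 to 0.104 in CD (difference 1.16 on the log2 scale, exact two-sided permutation p = 0.1, 0.133 adjusted). Of the other listed H3K9 writers, EHMT2 (G9a), which dimethylates H3K9, fell by 0.78 (SE 0.12, FDR = 0.000569). Its partner EHMT1 (-0.14, FDR = 0.393) and the writers SETDB1 (-0.39, FDR = 0.0516) and SETDB2 (0.52, FDR = 0.223) were not called.

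The KDM3 and KDM4 members erase H3K9 methylation, as does KDM7A, which is described below. KDM3A, which removes mono- and dimethyl groups, rose by 0.68 (SE 0.14, FDR = 0.00248), and its paralog KDM3B had a log2 fold change of 0.13 (SE 0.15, FDR = 0.510). The trimethyl erasers KDM4B and KDM4C had values of 0.28 (SE 0.14, FDR = 0.116) and 0.15 (SE 0.21, FDR = 0.581). The list of readers of acetyl-lysine and H3K9 methylation, which also holds the corepressor TRIM28, had 6 tested genes, with 2 higher and 2 lower. TRIM28, a corepressor that brings an H3K9 methyltransferase to zinc finger proteins, fell by 1.05 (SE 0.12, FDR = 7.28e-05), and the heterochromatin proteins CBX5 and CBX1 moved in opposite directions, at -0.48 (SE 0.14, FDR = 0.0161) and 0.47 (SE 0.13, FDR = 0.0150). BRD2, a bromodomain protein, rose by 0.35 (SE 0.10, FDR = 0.0181).

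Of the class IIa deacetylases, HDAC5 and HDAC9 were higher in CD. HDAC5 (ENSNVIG00000022414), a signal-dependent corepressor, was read at 90.7, 76.8 and 84.7 CPM in the control and at 439, 480.4 and 414 CPM in CD. This was the largest increase of any member, 5.29-fold (log2 fold change 2.40, SE 0.12, FDR = 4.71e-07). HDAC9 (ENSNVIG00000014244) had only 8, 4 and 10 reads in the control libraries and 47, 30 and 27 in the CD libraries, or 0.573, 0.289 and 0.551 CPM against 2.89, 1.84 and 1.94 CPM. HDAC9 passed the low-count filter through the CD libraries alone. The groups did not overlap, and the increase was 4.62-fold (log2 fold change 2.21, SE 0.34, FDR = 0.000513). The other class IIa enzymes were not called, HDAC7 with a log2 fold change of 0.07 (SE 0.14, FDR = 0.708) and HDAC4 with -0.08 (SE 0.22, FDR = 0.773). The ratio of HDAC9 to HDAC4 reads changed by 2.32 on the log2 scale (exact two-sided permutation p = 0.1, 0.133 adjusted).

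Class I deacetylases form the core of the NuRD, SIN3, CoREST and NCOR corepressors. HDAC2 (ENSNVIG00000006360) was read at 169, 199 and 165 CPM in the control and at 254, 217 and 264 in CD, higher in all 3 CD libraries. It rose by 0.46 on the log2 scale (SE 0.12, FDR = 0.0120). HDAC3, the catalytic subunit of the NCOR complex, was not called (0.03, SE 0.11, FDR = 0.852, mean 148 CPM in the control and 151 in CD), and none of the 3 tested partners in that complex was called. Of 18 tested partners in the complexes of HDAC1 and HDAC2, 3 were higher and 4 lower (median log2 fold change -0.04). The higher ones included MTA3 (0.94, SE 0.16, FDR = 0.000921) and MBD2 (0.88, SE 0.12, FDR = 0.000266), and the lower ones RCOR2 (-1.36, SE 0.20, FDR = 0.000365) and MTA2 (-0.86, SE 0.11, FDR = 0.000133). MTA2 and MTA3 are alternative subunits of NuRD, and they moved in opposite directions. The class IIb enzymes HDAC6, a deacetylase of tubulin, and HDAC10, a polyamine deacetylase, had log2 fold changes of 0.02 (SE 0.13, FDR = 0.900) and -0.12 (SE 0.14, FDR = 0.516). HDAC11 had 0, 3 and 0 reads in the control and 0, 2 and 2 in CD and was not tested.

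The sirtuins are NAD-dependent deacetylases in nucleus, cytoplasm and mitochondria, and 1 of 7 was called. SIRT3 (ENSNVIG00000005038), the main mitochondrial deacetylase, was read at 129, 131 and 135 CPM in the control and at 63.9, 82.6 and 94.0 in CD. All CD libraries were below the control, and SIRT3 fell by 0.72 on the log2 scale (SE 0.14, FDR = 0.00251). SIRT7, a nucleolar sirtuin, had 73.4, 76.3 and 79.2 CPM in the control and 42.8, 58.9 and 72.4 in CD. Its groups did not overlap, but it missed the threshold (log2 fold change -0.40, SE 0.17, FDR = 0.0873). The other 5 had log2 fold changes from -0.32 (SIRT4) to 0.21 (SIRT1) and were not called.

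**Figure D3:**
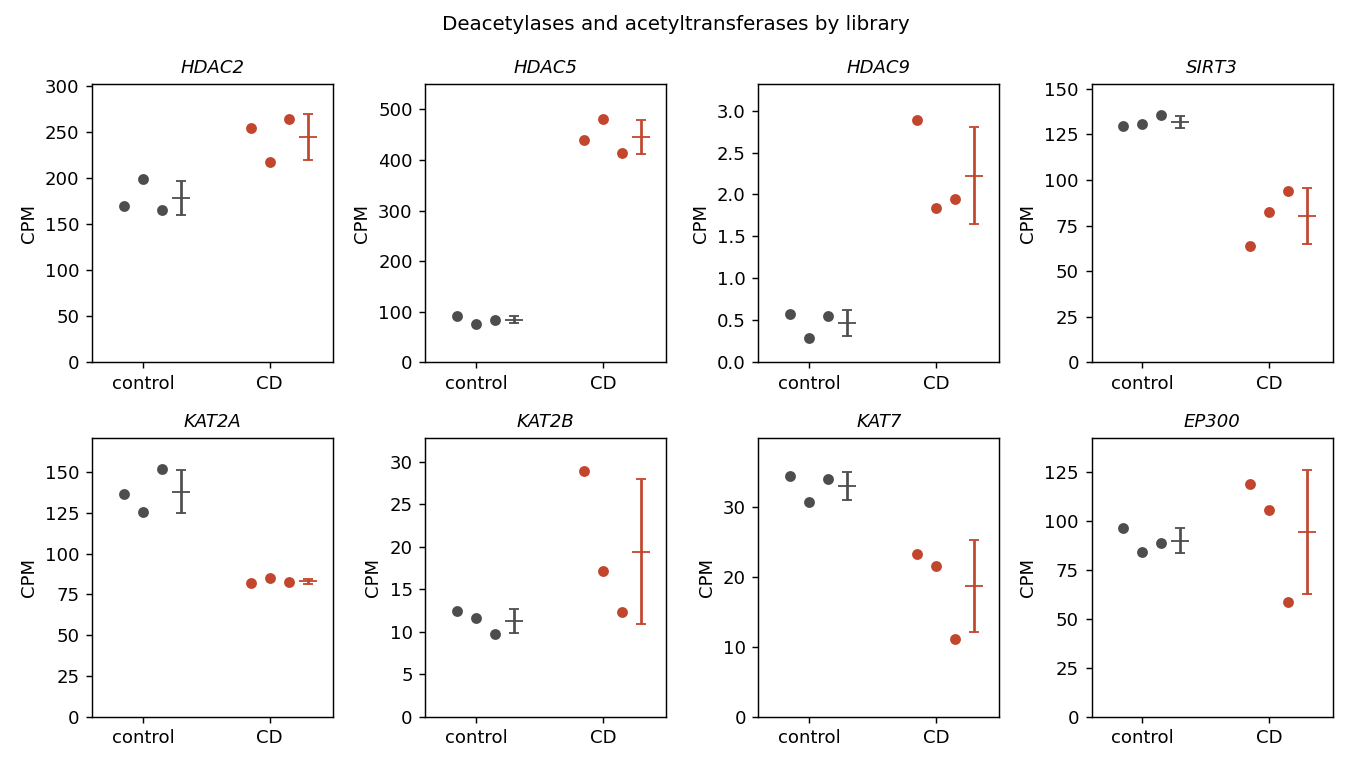
CPM of deacetylases (upper row) and acetyltransferases (lower row) in each library (points, control grey and CD red), with the mean and SD of the 3 libraries beside them. HDAC5 went from a mean of 84.0 to 444 CPM, KAT2A from 138 to 83.1, and for KAT2B and EP300 the CD libraries are spread over a wide range that overlaps the control.

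Of the GNAT and MYST acetyltransferases, 1 of 7 was higher and 2 were lower in CD. KAT2A (GCN5) and KAT2B (PCAF) are alternative catalytic subunits of the SAGA and ATAC coactivators and acetylate H3K9. KAT2A (ENSNVIG00000012127) was read at 137, 126 and 152 CPM in the control and at 81.9, 84.8 and 82.6 CPM in CD. It fell by 0.73 on the log2 scale (SE 0.11, 1.66-fold, FDR = 0.000503). KAT2B (ENSNVIG00000019496) was read at 12.5, 11.6 and 9.75 CPM in the control and at 28.9, 17.1 and 12.3 in CD, so that the lowest CD library lay within the control range. Its log2 fold change of 0.79 (SE 0.28, FDR = 0.0417) fell to 0.40 without CD replicate 1 (FDR = 0.129). The KAT2B call was kept in 8 of 15 alternative settings. It was also lost in limma-voom, with total count scaling, without CD replicate 2 and without each of the control libraries. Within libraries the ratio of KAT2B to KAT2A reads was 0.0644 to 0.0929 in the control and 0.149 to 0.353 in CD, a change of 1.43 on the log2 scale (exact two-sided permutation p = 0.1, 0.133 adjusted).

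KAT7 (ENSNVIG00000006694, also called HBO1), a MYST enzyme that acetylates H3K14 and is linked to the licensing of replication origins, was read at 34.4, 30.7 and 34.0 CPM in the control and at 23.3, 21.5 and 11.2 in CD. It fell by 0.82 on the log2 scale (SE 0.24, FDR = 0.0175), with CD replicate 3 lowest. The other MYST enzymes KAT5, KAT6A, KAT6B and KAT8 had log2 fold changes from -0.22 to 0.23 and were not called. KAT6A and KAT6B had the largest standard errors among them, 0.37 each.

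The coactivators CBP (CREBBP) and p300 (EP300), which acetylate H3K27 and H3K18, were not called. CREBBP was read at 94.3, 83.1 and 95.2 CPM in the control and at 95.7, 90.3 and 55.6 in CD (log2 fold change -0.17, SE 0.19, FDR = 0.474). EP300 was read at 96.7, 84.0 and 89.0 CPM in the control and at 119, 106 and 58.9 in CD (log2 fold change 0.07, SE 0.22, FDR = 0.802). In both, CD replicate 3 was the lowest of all 6 libraries, and without it EP300 passed the test (0.29, FDR = 0.0221) while CREBBP did not (0.00, FDR = 0.989). The ratio of EP300 to CREBBP reads was 0.936 to 1.03 in the control and 1.06 to 1.24 in CD (difference 0.22 on the log2 scale, exact two-sided permutation p = 0.1, 0.133 adjusted).

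Of 29 tested subunits of the MYST and SAGA complexes and other acetyltransferases, 8 were higher and 3 lower (median log2 fold change 0.32). The largest increases were those of ING4, a reader of H3K4me3 in the KAT7 complex, at 1.14 (SE 0.14, FDR = 0.000120), and of NCOA1, a nuclear receptor coactivator, at 1.13 (SE 0.25, FDR = 0.00378). SGF29, a SAGA subunit that binds H3K4me3, had the largest decrease, at -0.74 (SE 0.14, FDR = 0.00189). ING5, the paralog of ING4 in the same kind of complex, moved the other way, at -0.49 (SE 0.15, FDR = 0.0231).

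The KMT2 and SETD1 writers of H3K4 methylation had 1 of 6 tested members higher and 2 lower. SETD1A (ENSNVIG00000024952), a writer of the trimethyl mark at promoters, was read at 99.7, 85.3 and 97.7 CPM in the control and at 56.7, 65.6 and 51.3 in CD, and fell by 0.70 (SE 0.13, FDR = 0.00159). KMT2B, which trimethylates H3K4 at promoters, fell by 0.46 (SE 0.15, FDR = 0.0320). KMT2E (ENSNVIG00000016469), a relative whose SET domain has no clear methyltransferase activity, was read at 42.4, 36.9 and 35.4 CPM in the control and at 75.5, 67.4 and 62.1 in CD. Its groups did not overlap, and it rose by 0.84 (SE 0.13, FDR = 0.000553). The monomethyl writers of enhancers, KMT2C and KMT2D, had log2 fold changes of 0.53 (SE 0.23, FDR = 0.0812) and -0.46 (SE 0.35, FDR = 0.306), and SETD1B had -0.64 (SE 0.30, FDR = 0.102). In KMT2C, KMT2D and SETD1B the groups overlapped.

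SETD7 (ENSNVIG00000019944), which monomethylates H3K4 and several other proteins, was read at 9.60, 10.1 and 9.20 CPM in the control and at 42.8, 26.0 and 16.5 in CD. Although the CD libraries differed by up to 2.59-fold among themselves, all were above the control, and the increase was 2.95-fold (log2 fold change 1.56, SE 0.30, FDR = 0.00181). The subunits that KMT2 and SETD1 enzymes share (COMPASS core and associated proteins) had 1 of 11 tested higher and 4 lower. HCFC1 fell by 1.33 (SE 0.26, FDR = 0.00198), the scaffold menin (MEN1) by 0.74 (SE 0.12, FDR = 0.000592) and WDR5, which binds the tail of H3, by 0.62 (SE 0.12, FDR = 0.00228), whereas RBBP5 rose by 0.42 (SE 0.11, FDR = 0.0128).

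The KDM5 enzymes erase H3K4 di- and trimethylation. KDM5B (ENSNVIG00000014996) was read at 29.8, 25.5 and 23.2 CPM in the control and at 67.0, 66.1 and 57.6 in CD. The increase was 2.43-fold, without overlap (log2 fold change 1.28, SE 0.14, FDR = 5.65e-05). KDM5A rose by 0.73 (SE 0.19, FDR = 0.00866), a call lost without control replicate 3 (FDR = 0.0515). KDM5C had a log2 fold change of -0.10 (SE 0.15, FDR = 0.618). The flavin-dependent erasers of mono- and dimethyl H3K4, KDM1A (LSD1) and KDM1B, were not called, at -0.02 (SE 0.11, FDR = 0.912) and -0.08 (SE 0.28, FDR = 0.836). The ratio of KDM1B to KDM1A reads overlapped between the groups (exact two-sided permutation p = 0.7, 0.8 adjusted).

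The JmjC proteins that remain are KDM7A, KDM8 and KDM2A. KDM7A (ENSNVIG00000021549), an eraser of dimethyl H3K9 and H3K27, had 12, 8 and 7 reads in the control and 45, 19 and 13 in CD, or 0.860, 0.578 and 0.386 CPM against 2.77, 1.17 and 0.936 CPM. Every CD library was above the control, and the log2 fold change was 1.45 (SE 0.48, FDR = 0.0305). The value fell to 0.84 without CD replicate 1 (FDR = 0.113). The KDM7A call was also lost in DESeq2 and without control replicate 2 or control replicate 3. KDM8 (ENSNVIG00000007524) was read at 23.4, 22.7 and 26.3 CPM in the control and at 13.0, 16.4 and 19.2 in CD, and fell by 0.58 (SE 0.17, FDR = 0.0198). KDM2A, which erases dimethyl H3K36, was not called (-0.09, SE 0.13, FDR = 0.613). Of 8 other tested proteins with a JmjC domain, 2 were higher and 2 lower. JMJD1C (also called KDM3C), a relative of KDM3A, rose by 1.16 (SE 0.18, FDR = 0.000536) and HR (hairless) fell by 0.97 (SE 0.13, FDR = 0.000188).

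Methylation of H4K20 is begun by KMT5A, and its di- and trimethyl forms are written by KMT5B and KMT5C. KMT5A (ENSNVIG00000021182) was read at 48.6, 53.3 and 49.3 CPM in the control and at 66.3, 67.4 and 62.0 in CD, and rose by 0.37 (SE 0.11, FDR = 0.0205). KMT5B (ENSNVIG00000012483) was read at 8.74, 11.6 and 9.42 CPM in the control and at 20.3, 15.03 and 14.5 in CD, and rose by 0.74 (SE 0.20, FDR = 0.0109). In both genes all CD libraries were above the control. KMT5C had a log2 fold change of 0.23 (SE 0.16, FDR = 0.271).

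Among the other SETD proteins, SETD4 rose by 0.87 (SE 0.23, FDR = 0.00952) and SETD3, the actin histidine methyltransferase, by 0.37 (SE 0.11, FDR = 0.0199). SETD9 (ENSNVIG00000008874) had 15 to 40 reads per library, or 2.44, 2.89 and 1.98 CPM in the control and 1.35, 0.920 and 1.297 CPM in CD. It fell 2.03-fold, without overlap (log2 fold change -1.02, SE 0.27, FDR = 0.0103). SETD2, the trimethyl writer of H3K36, was not called (0.10, SE 0.21, FDR = 0.728), nor were SETD5 and SETD6.

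Lysine methyltransferases that the rule did not take had 2 of 14 tested members higher and 4 lower, with DOT1L, the H3K79 writer, at 0.53 with overlapping groups (SE 0.18, FDR = 0.0373), SMYD5 at -0.93 (SE 0.12, FDR = 0.000216) and MECOM at -1.26 (SE 0.42, FDR = 0.0298). MECOM had 71 reads in the control and 30 in CD. Its CD mean of 0.632 CPM was under the low-count cutoff, so MECOM entered the test through the control libraries, where it was high. The arginine methyltransferases had 1 of 8 tested higher and 4 lower, beside 24.8% and 22.9% of all genes. PRMT5 and PRMT1, which write the symmetric and most of the asymmetric dimethylarginine of the cell, fell by 0.96 (SE 0.10, FDR = 5.50e-05) and 0.95 (SE 0.11, FDR = 8.68e-05), and PRMT3 rose by 0.68 (SE 0.18, FDR = 0.0101). Counting each gene once, the partner and related lists held 120 tested genes, with 24 higher and 28 lower (43.3% called, against 47.7% of all genes) and a median log2 fold change of 0.00. Of the partner genes named, PHF1, CBX5, CBX1, BRD2, RBBP5, ING5, DOT1L, MECOM and PRMT3 lost the call in at least 1 alternative setting, and PHF1 kept it in only 7 of 15.

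The PRDM proteins join a SET-related PR domain to zinc fingers, and most act as transcription factors. PRDM1 (ENSNVIG00000003863, also called BLIMP1), a repressor known for the differentiation of plasma cells and epithelia, had 8 to 23 reads in the control libraries and 40 to 70 in the CD libraries. These were 0.931, 0.578 and 1.27 CPM against 4.30, 4.11 and 2.88 CPM, an increase of 3.97-fold without overlap (log2 fold change 1.99, SE 0.31, FDR = 0.000509). PRDM11 (ENSNVIG00000013288) was read at 2.51, 2.17 and 2.75 CPM in the control and at 2.03, 1.17 and 1.22 in CD, and was called lower close to the threshold (-0.75, SE 0.28, FDR = 0.0475). It kept the call in 6 of 14 alternative settings and lost it in DESeq2, with upper quartile or total count scaling and without the filter on low counts. The groups of PRDM4 and PRDM10 did not overlap, but neither was called (0.35, FDR = 0.0919, and -0.51, FDR = 0.0688). PRDM2 and PRDM15 had log2 fold changes of 0.46 and 0.02 and were not called. PRDM6 had no read in the control libraries and 1, 1 and 2 in the CD libraries, PRDM14 a single read in CD replicate 3, and PRDM13 none in any library. A count of 0 allows up to 3 reads, or 0.161 to 0.223 CPM of the unscaled library totals, for counting error only.

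**Figure D4:**
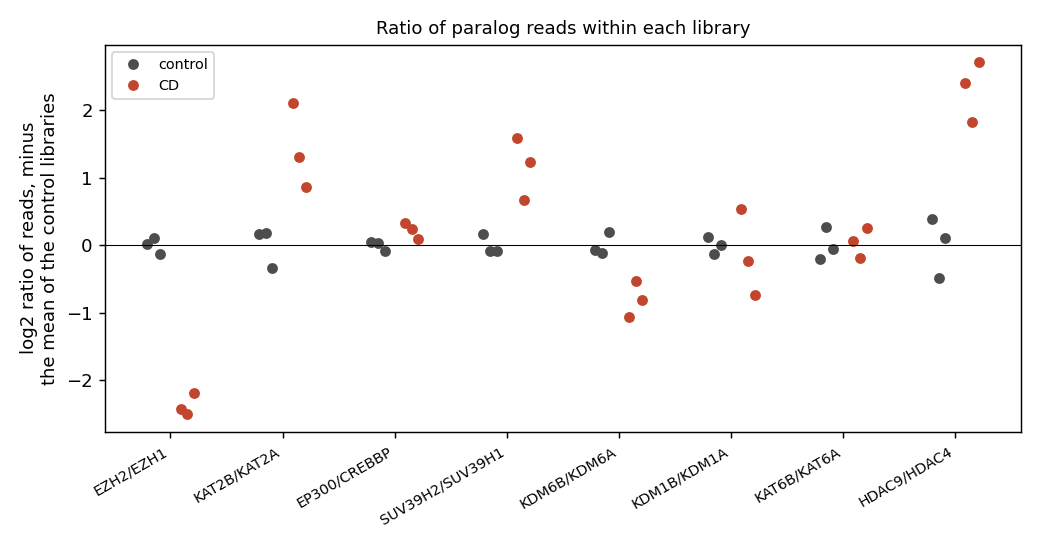
Log2 ratio of the reads of 2 paralogs within each library, set to 0 at the mean of the control libraries (control grey, CD red), for 8 pairs. The EZH2 to EZH1 ratio is lower in all CD libraries (difference -2.38), 6 of the 8 pairs do not overlap between the groups, and the KDM1B to KDM1A and KAT6B to KAT6A ratios do. The levels of single genes did not overlap in 58.0% of all genes tested, and the pairs were chosen with earlier results known. The HDAC9 to HDAC4 ratio rests on 4 to 10 HDAC9 reads per control library.

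Of the 8 paralog pairs, EZH2 and EZH1 and also KAT2A and KAT2B had both partners called in opposite directions, though the KAT2B call was kept in only 8 of 15 alternative settings. SUV39H1 and SUV39H2 were called in the same direction, in KDM6A and KDM6B and in HDAC9 and HDAC4 only 1 partner was called, and in the other 3 pairs none. The KAT6B to KAT6A ratio differed by 0.04 on the log2 scale between the groups (exact two-sided permutation p = 0.8, 0.8 adjusted). A leave-one-out of each library left the difference of the EZH2 to EZH1 ratio between -2.47 and -2.32.

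The members were more variable in the CD group than in the control, with a median coefficient of variation of 17.4% against 8.15% (17.0% and 8.80% over all genes tested). CD replicate 3 was the lowest of the CD libraries in 38 of 67 members (56.7%), compared with 41.0% of all genes. In 8 members its level was below 0.5 times the mean of the other CD libraries, in KAT6A, KMT2D, KAT6B, SETD1B, KDM7A, SETD7, PRDM2 and KAT7, and the same was the case in 752 of the 12148 genes tested. For example, KMT2D was read at 99.3 and 68.3 CPM in CD replicates 1 and 2 and at 27.2 in CD replicate 3, and KAT6A at 28.3, 18.4 and 7.56. CD replicate 3 also had more unmapped reads (9.37% against 3.54% and 4.33%) and more reads outside annotated features (25.4% against 21.9% and 21.6%) than the other CD libraries, but fewer unmapped reads than control replicates 1 and 2 (18.4% and 13.6%). The part of these differences in the low values was not tested.

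**Figure D5:**
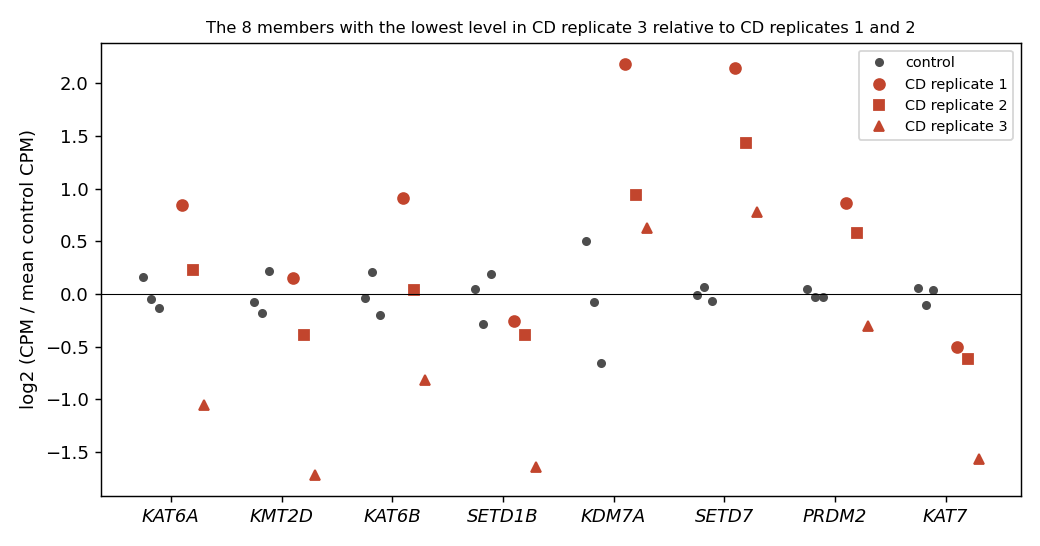
Log2 of the CPM in each library over the mean control CPM for the 8 members whose level in CD replicate 3 is lowest relative to CD replicates 1 and 2 (control grey, CD replicates 1, 2 and 3 as circles, squares and triangles). In KMT2D and SETD1B the triangle lies far below every other library, and in KDM7A and SETD7 it still lies above the control.

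Without CD replicate 3, all 28 called members were still called and 12 more passed the test (SIRT6, SIRT7, KDM3B, KDM4B, KMT2C, SETD1B, SETD6, EED, KAT6A, EP300, PRDM2 and PRDM4), so that 40 members were called. The number of all genes called also rose in the same fit, from 5800 to 7222. Whether the gain was larger among the members than among all genes was not tested. KAT6A then had a log2 fold change of 0.53 (FDR = 0.00488) and PRDM2 of 0.70 (FDR = 1.14e-06). Among the 28 called members, 17 stayed called whichever library was left out. The 11 that lost the call without some library had adjusted p-values of 0.0515 to 0.156 there. They were HDAC2, KDM5A, KDM7A, KDM8, KMT2B, KMT5A, KMT5B, SETD3, KAT2B, KAT7 and PRDM11. Without control replicate 3 all 11 lost the call, without control replicate 1 all of them but KDM5A and KDM7A, without control replicate 2 KDM7A, KAT2B and PRDM11, without CD replicate 1 KDM7A and KAT2B, and without CD replicate 2 KMT5A, SETD3, KAT2B and PRDM11.

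The 39 tested members that were not called had log2 fold changes from -0.64 (SETD1B) to 0.53 (KMT2C), 21 above and 18 below 0, with standard errors of 0.11 to 0.37. Of these, 31 lay within 0.3 of 0. In 4 of them, SIRT5, SIRT7, PRDM4 and PRDM10, the groups did not overlap. A missed threshold does not show that their levels were equal, and 17 of the 39 passed the test in at least 1 alternative setting, 9 of them with sample quality weights over the same 6 libraries.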

How the data were processed

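According to the study's methods, Nextera XT libraries of poly(A) mRNA were run on a NextSeq500, and the reads were trimmed with fastp 0.20.1 and aligned to the mink assembly NNQGG.v01 with STAR 2.7.2a. The counting program and whether it used the strand are not given in the sources used here, which makes overlapping genes, antisense genes and near-identical copies uncertain.

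The authors deposited raw counts for each gene and library, without normalization, and these counts were used here. Its 4 summary rows of reads not assigned to a gene held 29.3% to 47.2% of the counts of a library and were left out. The deposited normalized files were not used, since their gene identifiers do not pair with the counts, and genome coordinates and sequences were not used here. Single values of a few genes are not reported here, though those genes stay in the counts and medians.

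Groups and replicate numbers came from the sample labels. CD and control were compared in edgeR 4.0.16 (R 4.3.3), with the default filterByExpr (at least 10 counts, and 15 in total), TMM scaling, robust glmQLFit and glmQLFTest with the condition as the only term over all 6 libraries, Benjamini-Hochberg adjustment over all tested genes, and calls at 0.05. This main test takes the place of the DESeq2 comparison of the study. The SE is the size of the log2 fold change divided by the square root of F, and its median of 0.17 over the members is the precision reached at this depth. The fit was tested on simulated data.

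Log2 ratios of paralog counts within a library used a prior count of 0.5 on each and an exact two-sided permutation test. HDAC1 and KDM2B were not analysed here, so 8 of the planned pairs were compared.

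The members, the lists of partners and markers, and the pairs were chosen with earlier results of these data known. Values per library are given for called members with a change of at least 2-fold, for the called members with the highest and lowest log2 fold change of each family, and for the PRC2 core, CREBBP and EP300; other members are given by their log2 fold change or by range. KAT2A, KMT2D, KAT6A and SIRT7 were added to those with values per library after their values were seen. Partner lists are given by counts and their extreme called members, with JARID2 in the lists of PRC2 and of JmjC proteins, and BRD2, CBX1, CBX5, EHMT1, EHMT2, SETDB1, SETDB2, ING5 and MTA2 named beside them after their values were seen. Alternatives were DESeq2 1.42.0, limma-voom (limma 3.58.1) with and without sample quality weights, other scalings, no filter, a minimum of 50 counts in 3 libraries, a replicate block, leaving out each library, and a threshold of 0.01.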

Additional observations from a re-analysis of the deposited data

How the results depend on the processing

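With a threshold of 0.01 in place of 0.05, 17 members were called (11 higher and 6 lower) beside 4042 of all genes (2006 higher and 2036 lower). Leaving out 1 library at a time gave 17 to 40 called members, 10 to 24 of them higher and 7 to 16 lower. The lowest count came without control replicate 3 (17, of which 10 higher and 7 lower) and the next without control replicate 1 (19, with 7 lower), and the highest without CD replicate 3 (40). The number of all genes called moved in the same direction, from 5800 to 4410, 4479 and 7222. The other alternatives left 22 to 37 members called, with 22 when at least 50 counts in 3 libraries were required, since HDAC9, KDM7A, SETD9, SUV39H2, PRDM1 and PRDM11 were then not tested, and 37 with sample quality weights. The same fits called 5120 and 7431 of all genes. DESeq2 did not call KDM7A and PRDM11. Over 15 alternative settings, 17 of the 28 called members (10 higher and 7 lower) passed in every setting in which they were tested, and 0 changed sign. Of the 39 members not called, 17 passed in at least 1 setting and 18 changed sign in at least 1. The median log2 fold change of the members ranged from -0.05 without CD replicate 2 to 0.13 without CD replicate 3. The scalings moved the median of all genes by less than 0.1 on the log2 scale. The replicate block gave 27 called members (15 higher and 12 lower), 26 of them shared, with KMT5A and SETD3 lost and SIRT7 gained. Same-numbered libraries had correlated deviations of -0.02, -0.44 and -0.21 for replicates 1, 2 and 3, against -0.03 to 0.34 for differently numbered ones. Deviations of 3 libraries around their own mean depend on one another, so these values cannot decide whether the numbers pair the samples. No group has enough libraries for a test of outlying samples. The number of libraries and the spread of the CD group limit what can be called, and fewer than 30 reads per library limit HDAC9, KDM7A and PRDM1 in the control.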
